A study of Mus musculus with 2 samples.

Results

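The GIMAP genes (GTPases of immunity-associated proteins) are a family of small GTP-binding protein genes that lie side by side on mouse chromosome 6. The members taken here were the rows named Gimap1, Gimap3, Gimap4, Gimap5, Gimap6, Gimap7, Gimap8 and Gimap9, 8 of the 23961 gene symbols in the tables, and each had 1 row per library. They were read in 2 RNA-seq libraries of haematopoietic stem cells sorted from the bone marrow of C57BL/6 mice, 1 labelled Per2wt (wild-type) and 1 labelled Per2def (Per2-deficient). Mice of both genotypes were untreated, ate regular chow and were kept for at least 2 weeks under a 12:12 light/dark cycle. The sources used here name neither the Per2 allele nor the age of the mice, the number of animals per library, the sort markers or the hour of collection. Values are FPKM, fragment numbers scaled by the length of the transcript and by library size, so levels can be compared between genes. Each genotype has 1 library, so nothing below has a replicate check or a test, and each difference is between these libraries.

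GIMAP proteins carry a GTP-binding domain related to that of septins, and they are best known in lymphocytes, where they act in survival and in the death of resting cells. Some are fixed in membranes by a hydrophobic tail, among them the products of Gimap1, Gimap3 and Gimap5, while others are soluble. Loss of Gimap5 causes lymphopenia in rats and mice and impairs blood stem cells in mice, which is why the family is of interest in a stem cell sort.

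The family was present in both libraries at almost the same summed level. The 8 genes together summed to 61.9 FPKM (library labelled Per2wt) and 63.6 FPKM (library labelled Per2def), a ratio of 1.03 that went to the other side of 1 when the libraries were scaled by the median of ratios or the upper quartile. Gimap6 and Gimap1 made up 73.4% of that sum in Per2wt and 71.3% in Per2def. The other 6 genes summed to 16.5 and 18.2 FPKM. The most abundant member exceeded the least abundant 42.0-fold in Per2wt and 21.5-fold in Per2def.

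Differences were taken as log2(FPKM + 1) in the library labelled Per2def minus the same in the library labelled Per2wt, where the added 1 shrinks differences of weakly expressed genes. On it 6 of the 8 genes were higher in Per2def and 2 were lower. Of the 11121 genes that reached 1 FPKM in either library, called measured below, 62.0% were higher in Per2def, which makes 6 of 8 close to the background. The median difference of the family was 0.16 (range −0.18 to 0.58) beside 0.05 over all measured genes. None of the 8 reached a 2-fold difference on this scale, which 2.25% of the measured genes did in either direction, or 0.417% without rows named as small or predicted RNAs. Gimap3 and Gimap4 were measured through the Per2def library alone, where they were higher, so their presence in these counts was bound to add to the higher side. Among the 6 members at 1 FPKM or more in both libraries, 4 were higher, beside 61.6% of the 10460 genes with that property, and 2 were lower.

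**Figure D1:**
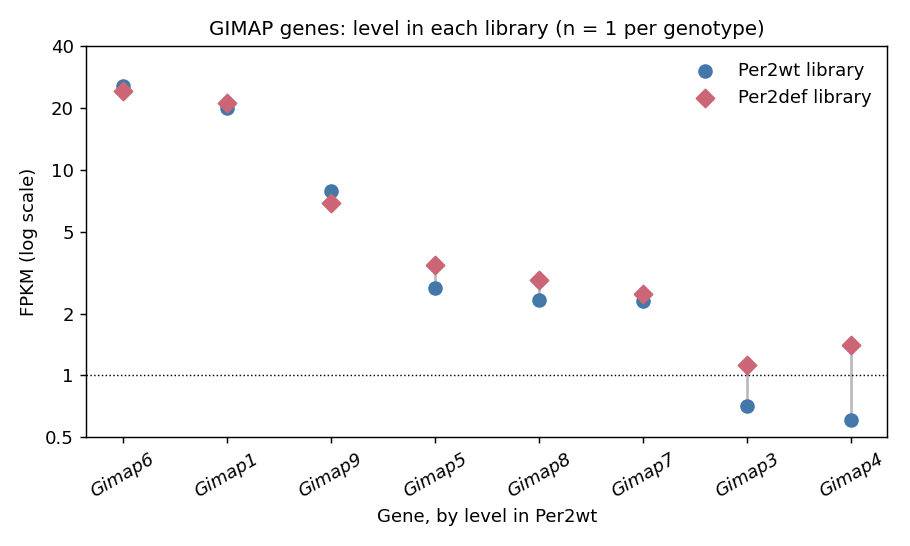
Level of each GIMAP gene in FPKM (log axis) in the Per2wt library (circles) and the Per2def library (diamonds), 1 library each, ordered by level in Per2wt, with a dotted line at 1 FPKM. Among the 6 more abundant genes the libraries lie at most 1.29-fold apart, in Gimap5, while Gimap3 and Gimap4 stand below the line in Per2wt and above it in Per2def.

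The tables give no read totals. Genes under 0.5 FPKM in both libraries move in steps worth 1 fragment, and their most common ratio of Per2def to Per2wt, 0.805, is that of a Per2def library sequenced 1.24 times as deeply. For low genes with a single annotated transcript the step itself put the libraries near 22.2 (Per2wt) and 27.5 (Per2def) fragments per FPKM and kilobase of transcript. The step and an offset of 170 bases, taken off transcript length, were chosen together to fit as many genes as possible. Of 96 such genes only 23 fell within 3% of that step. The fragment numbers below follow from these depths, from annotated transcript lengths and from that offset. They are therefore estimates that show only how much data lies behind a value, and no counting interval is attached to them. Per2 was higher in the library labelled Per2def, at 6.16 against 1.96 FPKM, and since the allele is not named this value checks nothing about the labels.

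The family occupies 124 kb of chromosome 6, from 48647234 to 48770851 (GRCm38, GENCODE M21). Along the chromosome the order is Gimap8, Gimap9, Gimap4, Gimap6, Gimap7, Gimap1, Gimap5 and Gimap3, with 6 genes on the plus strand and Gimap6 and Gimap3 on the minus strand. Because each gene has a start of its own, the 250 bases before the RefSeq start (GRCm38.p6) are shown for the most abundant pair and for the pair with the widest differences, read 5′ to 3′ on the strand of the gene. Capitals mark matches, on either strand, to any of the motifs described after them. The Gimap4 window ends at 48684577, past the GENCODE start of that gene at 48684549, so its last bases lie inside the GENCODE gene. Bases checked after that window were not found in an annotated Gimap4 transcript, so its start is less certain.

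Gimap6, chr6:48708245-48708494, minus strand: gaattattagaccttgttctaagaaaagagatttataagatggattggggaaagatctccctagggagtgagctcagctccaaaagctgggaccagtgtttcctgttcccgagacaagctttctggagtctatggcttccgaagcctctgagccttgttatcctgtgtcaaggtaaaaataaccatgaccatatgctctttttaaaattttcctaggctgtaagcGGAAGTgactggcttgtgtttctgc

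Gimap1, chr6:48738797-48739046, plus strand: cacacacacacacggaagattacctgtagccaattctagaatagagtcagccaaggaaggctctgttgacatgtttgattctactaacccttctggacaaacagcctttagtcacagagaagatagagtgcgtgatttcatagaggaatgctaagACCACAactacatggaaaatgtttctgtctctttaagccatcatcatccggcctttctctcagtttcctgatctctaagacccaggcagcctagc

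Gimap4, chr6:48684328-48684577, plus strand: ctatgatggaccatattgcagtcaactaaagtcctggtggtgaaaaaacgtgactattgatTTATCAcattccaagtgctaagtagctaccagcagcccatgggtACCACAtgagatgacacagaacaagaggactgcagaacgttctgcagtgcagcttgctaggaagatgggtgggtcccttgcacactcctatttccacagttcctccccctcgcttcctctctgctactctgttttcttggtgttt

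Gimap3, chr6:48770852-48771101, minus strand: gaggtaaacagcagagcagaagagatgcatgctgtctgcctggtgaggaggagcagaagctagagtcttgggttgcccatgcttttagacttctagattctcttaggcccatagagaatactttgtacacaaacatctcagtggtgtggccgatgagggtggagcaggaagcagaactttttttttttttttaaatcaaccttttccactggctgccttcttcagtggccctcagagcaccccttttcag

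The search covered 5 short motifs on both strands. For the clock it used the E-box letters CACGTG, to which clock activators bind. The nuclear receptors ROR and REV-ERB were represented by the letters AGGTCA. For RUNX factors of blood cells the letters were TGTGGT, and for factors of the ETS family they were GGAAGT. Factors of the GATA family, which act in stem and progenitor cells, were represented by TGATAA. No matches overlapped in these windows. All 8 members were found in the RefSeq table, with 9 windows, since Gimap8 has an extra start. TGTGGT was present before Gimap1, Gimap4 and Gimap7, in 3 of the 9 windows, and in 14.0% of all 32841 windows of the same length. GGAAGT lay before Gimap5 and Gimap6, against 19.7% of all windows, and TGATAA before Gimap4 alone, against 7.94%. None of the 9 windows held CACGTG (6.02% of all windows) or AGGTCA (14.0%), which says only that these letters are not in these windows. A match is a description of these letters and not a binding site. Base composition ranged from 43.6% to 61.2% G and C among the 9 windows, around a median of 52.4% for all windows.

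Gimap6 and Gimap1 were the most abundant members and differed little between the libraries. Gimap6 (ENSMUSG00000047867.11, 48701582 to 48708225, minus strand) encodes a soluble member that binds an LC3-family protein of the autophagy machinery, and its level was 25.5 FPKM (Per2wt) and 24.3 FPKM (Per2def), a difference of −0.07. About 804 and 950 fragments lie behind these levels. Gimap1 (ENSMUSG00000090019.5, 48739054 to 48743795, plus strand), whose product mature T and B cells need to survive, was at 19.9 and 21.1 FPKM (difference 0.08). Of measured genes with a mean FPKM within 2-fold of theirs, 64.9% of 2242 differed by at least as much as Gimap6 and 60.1% of 2725 by at least as much as Gimap1. Their order was the same in both libraries, but the distance between them was only 1.28-fold in Per2wt and 1.15-fold in Per2def.

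Gimap9 (ENSMUSG00000051124.6, 48676129 to 48679114, plus strand) ranked next in both libraries and was the member furthest to the lower side. Its level was 7.90 FPKM (Per2wt) and 6.87 FPKM (Per2def), a difference of −0.18, from about 213 and 229 fragments. A difference of that size or more was seen in 30.9% of 5094 genes of like level. Gimap9 was separated from its neighbours in the order, standing 2.52-fold under Gimap1 and 2.96-fold over Gimap5 in Per2wt and 3.07-fold and 2.00-fold in Per2def.

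Gimap5, Gimap8 and Gimap7 formed a middle group between 2.29 and 3.43 FPKM. Gimap5 (ENSMUSG00000043505.8, 48746197 to 48754210, plus strand), the lysosomal membrane member whose loss impairs lymphocytes and blood stem cells, had 2.67 FPKM (Per2wt) and 3.43 FPKM (Per2def), a difference of 0.27. Gimap8 (ENSMUSG00000064262.7, 48647234 to 48660875, plus strand), which encodes the largest protein of the family with several GTP-binding domains, was at 2.32 and 2.91 FPKM (difference 0.23). Gimap7 (ENSMUSG00000043931.10, 48718621 to 48724636, plus strand), whose product hydrolyses GTP as a dimer, was at 2.29 and 2.50 FPKM (difference 0.09). All 3 were higher in Per2def, by amounts common at their level, since 18.1% of 4454 like genes differed by at least as much as Gimap5, 24.9% of 4159 by at least as much as Gimap8 and 64.9% of 3981 by at least as much as Gimap7. Within the group the levels lay close, with Gimap8 only 1.01-fold over Gimap7 in Per2wt and 1.16-fold in Per2def, so their order is not separated by more than the libraries differ.

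Gimap4 and Gimap3 were the least abundant members and had the widest differences. Gimap4 (ENSMUSG00000054435.16, 48684549 to 48692060, plus strand), which speeds the death of T cells already set on apoptosis, had 0.606 FPKM (Per2wt) and 1.41 FPKM (Per2def), a ratio of 2.32 and a difference of 0.58. Its annotated transcripts run from 771 to 1804 bases, which puts the fragments behind these levels at 8 to 22 in Per2wt and 23 to 63 in Per2def. Of 1747 measured genes of like level 5.55% differed by as much or more, and of 2636 such genes with no filter on low values 4.1% did. The call of a 2-fold difference depended on the pseudocount. With 0.1 FPKM in place of 1 the Gimap4 difference was 1.09, past 2-fold, as it was for 1.95% of measured genes in that direction, or 0.814% without small or predicted RNAs. Gimap3 (ENSMUSG00000039264.9, 48764464 to 48770851, minus strand), the closest relative of Gimap5, was at 0.707 and 1.13 FPKM, a ratio of 1.60 and a difference of 0.32, from about 31 and 61 fragments. As much or more was seen in 22.8% of 1524 measured genes of like level. Gimap3 stood 1.17-fold over Gimap4 in Per2wt and 1.25-fold under it in Per2def, the only neighbours in the order that changed places.

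**Figure D2:**
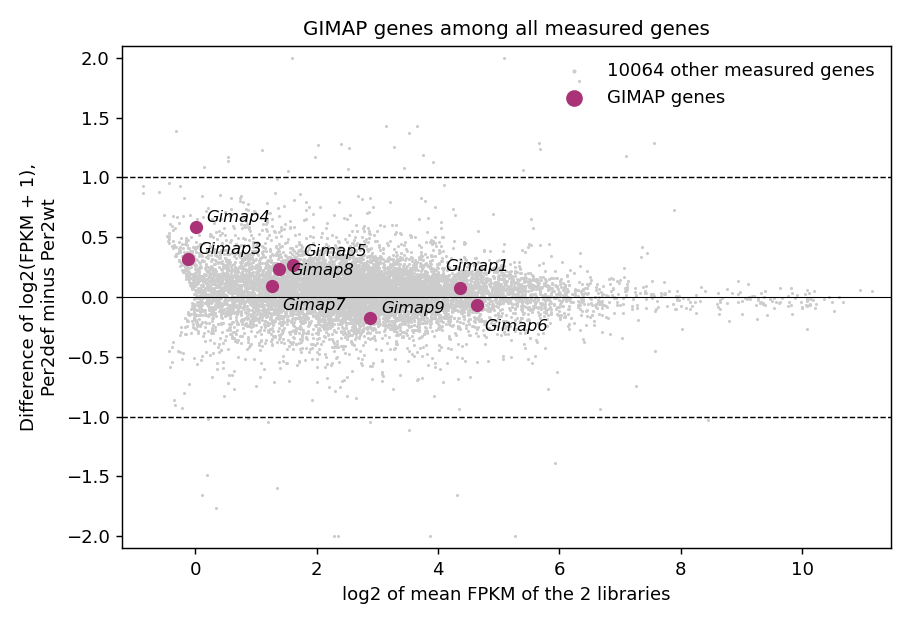
Difference of log2(FPKM + 1), Per2def minus Per2wt, against the log2 mean FPKM for the 8 GIMAP genes (large points) and 10064 other measured genes not named as small or predicted RNAs (grey), with dashed lines at a 2-fold difference. The GIMAP genes lie inside the grey cloud and between the dashed lines, and 6 grey genes beyond 2 on the vertical axis are drawn at its edge.

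How far reads can be told apart within the locus differs by member. In the annotated transcripts Gimap3 and Gimap5 shared 190 stretches of 50 bases, 7.52% of those of Gimap3 and 4.53% of those of Gimap5, and 41 stretches of 100 bases. No other pair of members shared a stretch of 50 bases. A further gene model, Gm28053 (48718607 to 48752644, plus strand), runs over Gimap7, Gimap1 and Gimap5, and an antisense model, Gimap1os (48738346 to 48741444, minus strand), overlaps Gimap1. Neither has a row in the tables used here, and the strand setting of the counting is not stated. The values of Gimap3 and Gimap5, and any share of Gm28053 or Gimap1os in the rows of Gimap7, Gimap1 and Gimap5, are uncertain to that extent.

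Genes around the family were compared because the rule that chose the members took no account of position. Within 500 kb on either side 21 other genes had a row, of which 10 were measured. Of these 5 were higher and 5 lower in Per2def, beside 62.0% higher among all measured genes. The median difference of the 10 was 0.01 (range −0.22 to 0.52). That median turned to −0.03 when the libraries were scaled by the median of ratios. On the side of Gimap3, the membrane protein genes Tmem176b, at 61.1 and 58.5 FPKM (difference −0.06), and Tmem176a, at 20.7 and 24.0 FPKM (difference 0.20), were the most abundant neighbours with Tra2a, a splicing factor gene at 25.4 and 25.1 FPKM (difference −0.01). Malsu1, which acts on mitochondrial ribosomes, was at 6.89 and 5.79 FPKM (difference −0.22). On the side of Gimap8, the zinc finger genes Repin1 (8.17 and 8.27 FPKM, difference 0.02) and Zfp467 (2.98 and 3.52 FPKM, difference 0.18) and the low genes Gm5111 (difference −0.04), Krba1 (0.05) and Zfp862-ps (−0.00445) differed little. Lrrc61 was the exception there, at 1.37 and 2.39 FPKM (difference 0.52), a size close to that of Gimap4 and likewise at a low level. Higher and lower genes lay interspersed along the locus.

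**Figure D3:**
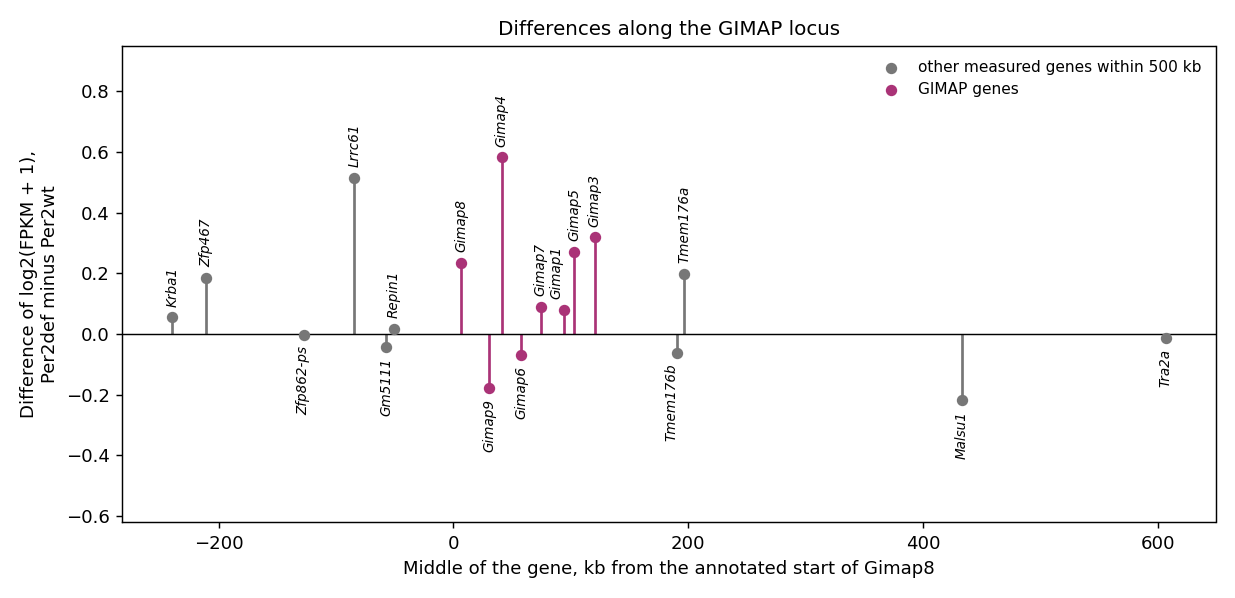
Difference of log2(FPKM + 1), Per2def minus Per2wt, of each GIMAP gene and of the 10 other measured genes within 500 kb, placed at the middle of the gene in kb from the annotated start of Gimap8. Gimap9 and Gimap6 point down between Gimap8, Gimap4 and Gimap7, which point up.

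The proteins that GIMAPs are known to work with differed little at the RNA level. All 13 genes of this list were measured, 7 higher and 6 lower in Per2def, beside 62.0% higher among all measured genes. The median of the list was 0.01 and became −0.04 under the median of ratios. None reached 2-fold. Among BCL2-family genes, whose products decide mitochondrial apoptosis, the anti-apoptotic Bcl2 was at 10.2 and 9.52 FPKM (difference −0.09), Bcl2l1 at 2.995 and 3.25 FPKM (0.09) and Mcl1 at 23.4 and 23.5 FPKM (0.01). The pro-apoptotic Bax was at 24.3 and 27.7 FPKM (0.18) and Bad at 6.80 and 7.91 FPKM (0.19). Bax and Bad stood a little higher in Per2def, as did 62.0% of all measured genes, and the anti-apoptotic genes went both ways. LC3-family genes of the autophagy machinery were included since Gimap6 protein binds an LC3-family protein. Gabarapl2 was at 14.3 and 15.5 FPKM (0.12), Gabarap at 36.2 and 31.4 FPKM (−0.20) and Gabarapl1 at 29.2 and 27.5 FPKM (−0.08). Hspa8, a constitutive chaperone gene, was at 540 and 491 FPKM (−0.14), and Gsk3b, a kinase gene, at 4.55 and 5.31 FPKM (0.19). Calm2 and Calm3, included since Gimap4 protein can bind calmodulin, were at 106 and 102 FPKM (−0.06) and at 74.2 and 78.0 FPKM (0.07).

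Because GIMAP RNA is abundant in mature lymphocytes, lymphocyte markers are given beside the family. Of 16 T cell markers in the tables none was listed at 0 in either library, and they summed to 21.5 FPKM (Per2wt) and 28.5 FPKM (Per2def). Only 7 were measured, 6 of them higher in Per2def, with a median of 0.38, beside 62.0% higher among all measured genes. Of these, Cd3g and Cd4 were measured through Per2def alone, where they were higher, so they were bound to add to that side. The 5 at 1 FPKM or more in both libraries had a median of 0.16, with 4 higher, beside 61.6% of all genes with that property. All 16 without a filter had a median of 0.159, with 15 higher. Over all 23961 genes without a filter the median was 0, with genes at 0 in both libraries included. The share higher among them was not computed, so the count of 15 has no background beside it. The receptor subunit gene Cd3g was at 0.266 and 1.41 FPKM (difference 0.93), and Cd3e at 0.389 and 0.569 FPKM. Thy1, also a stem cell surface gene, was at 1.45 and 3.02 FPKM (0.72), the kinase gene Lck at 4.12 and 5.65 FPKM (0.38) and the adaptor gene Lat at 8.75 and 9.26 FPKM (0.07). Among measured genes, 6 of 7 T cell markers and 6 of the 8 GIMAP genes thus stood higher in Per2def, beside 62.0% of all. The part of T cells in the GIMAP differences was not tested. In such bulk libraries, fewer cells of a type and less RNA per cell cannot be told apart.

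Other lymphoid genes did not go 1 way. Natural killer and innate lymphoid markers summed to 29.1 and 37.5 FPKM over 14 genes, most of it from the granule membrane gene Nkg7 (23.7 and 28.4 FPKM). Only 3 were measured, all higher in Per2def, beside 62.0% of all measured genes. Among them were Zbtb16 at 1.26 and 2.70 FPKM and Id2 at 1.55 and 3.15 FPKM, both transcription regulators of innate lymphoid cells. The 3 had a median of 0.70, whereas all 14 without a filter had a median of 0.0981, with 9 higher and 5 lower. Over all genes without a filter the median was 0, and the share higher was not computed. B lineage markers summed to 10.1 and 9.21 FPKM over 12 genes, with Igll1 listed at 0 in both libraries and Ms4a1 in Per2wt. The 2 measured B lineage genes, Cd79b (6.00 and 5.29 FPKM) and Blnk (1.15 and 1.00 FPKM), were lower in Per2def, as were 38.0% of all measured genes. Of 18 lymphoid transcription factor genes 13 were measured, 8 higher and 5 lower, beside 62.0% higher among all measured genes. The median of the 13 was 0.04 and became −0.01 under the median of ratios. Myb (73.4 and 69.6 FPKM, difference −0.07) and Ikzf1 (33.4 and 34.1 FPKM, 0.03) were the most abundant, and Tcf7 (1.22 and 2.40 FPKM, 0.61) and Ets1 (2.48 and 4.01 FPKM, 0.53), factors of T cell development, had the widest differences.

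The stem and progenitor label was checked against its own markers. Kit stood at 42.7 and 43.6 FPKM, Cd34 at 90.5 and 83.9 FPKM and Flt3, a receptor of multipotent progenitors, at 48.8 and 51.4 FPKM, whereas the stem cell genes Slamf1 and Hoxb5 were under 1 FPKM in both libraries. Of 16 such markers 13 were measured, 6 higher and 7 lower (median −0.01), beside 62.0% higher among all measured genes. The 12 at 1 FPKM or more in both libraries had 6 on each side (median 0.00859). Cd48 (16.0 and 22.6 FPKM, difference 0.47) and Hlf (20.3 and 15.8 FPKM, −0.34) were furthest apart. Endothelial cells also express GIMAP genes. The 12 genes of that list summed to 72.0 and 79.5 FPKM and were split in level. Cdh5 was at 0.0115 and 0.0278 FPKM, Kdr at 0.0913 and 0.0267 FPKM and Flt1 at 0.0502 and 0.0288 FPKM, and Cldn5 was listed at 0 in Per2wt. Pecam1, at 10.1 and 11.9 FPKM, Tie1, at 6.53 and 6.40 FPKM, Emcn, at 3.04 and 2.20 FPKM, and Vwf, at 1.17 and 1.28 FPKM, were measured, and some of these are also expressed by blood stem cells or megakaryocytes. All 8 measured endothelial genes had a median of 0.14, and 5 of the 8 were higher in Per2def, beside 62.0% of all measured genes. Among the 8 were Egfl7 (29.1 and 33.9 FPKM) and Eng (18.6 and 16.8 FPKM), and Plvap (1.18 and 2.30 FPKM) and Ly6c1 (2.04 and 4.54 FPKM), the pair furthest apart.

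Interferon-inducible GTPases, the other large group of immune GTPases, stood mostly lower in Per2def. Of 15 measured members 12 were lower, with a median of −0.27, and the 18 genes of the list summed to 95.2 FPKM (Per2wt) and 76.5 FPKM (Per2def), a ratio of 0.804 beside the ratio of 1.03 for the GIMAP genes. Background for lower genes was 38.0% of measured genes. Gbp4, Gbp6 and Gbp8 were measured through Per2wt alone, where they were higher, so they were bound to add to the lower side. Of the 12 members at 1 FPKM or more in both libraries 9 were lower, with a median of −0.19, beside 38.4% of all genes with that property. Gbp6 was at 4.31 and 0.760 FPKM (difference −1.59) and Gbp4 at 1.38 and 0.369 FPKM (−0.80). Sequence shared among the genes of this list was not measured here, and their values are uncertain to that extent. By the mean of the libraries Ifi47, at 17.2 and 14.1 FPKM (−0.27), and Gvin1, at 9.22 and 11.3 FPKM (0.27), were the most abundant. In Per2wt, Irgm1 (11.3 and 8.17 FPKM), Tgtp2 (10.7 and 6.40 FPKM) and Tgtp1 (5.54 FPKM in Per2def) stood above Gvin1, and all 3 were lower in Per2def. The difference between the families was not tested, as 1 library per genotype allows none.

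Among lists of other blood lineages, neutrophil genes were the furthest from the GIMAP genes. All 11 were higher in Per2def (median 1.18), beside 62.0% of all measured genes. The neutrophil genes summed to 527 FPKM (Per2wt) and 1012 FPKM (Per2def). Beside the same share, 4 of 5 measured monocyte genes were higher (median 0.13), as were 6 of 10 erythroid genes (median 0.34, range −2.71 to 0.75). Of the megakaryocyte genes 2 of 6 were higher (median −0.15), and of the housekeeping genes 4 of 10 (median −0.04). The erythroid genes were split, since Car1 (0.72), Rhag (0.75) and Epor (0.54) were higher in Per2def while the haemoglobin genes Hba-a2 (−2.71), Hbb-bt (−0.77) and Hba-a1 (−0.75) and the haem synthesis gene Alas2 (−0.46) were lower. The GIMAP median of 0.16 lay among these medians.

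**Figure D4:**
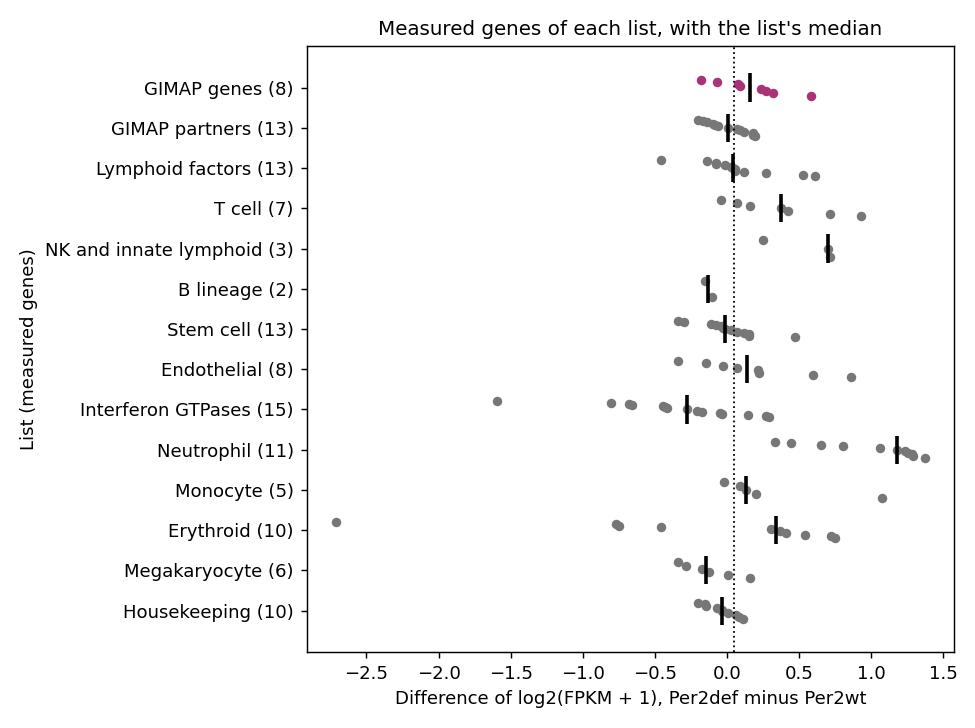
Difference of log2(FPKM + 1), Per2def minus Per2wt, of each measured gene (points) in the GIMAP family and 13 other lists, with the median of each list (black bar) and of all measured genes (dotted line, 0.05). GIMAP genes span −0.18 to 0.58 on both sides of the dotted line, while all 11 neutrophil genes lie to its right.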

How the data were processed

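The authors deposited FPKM per gene for each library, computed with Cufflinks per the file headers; the submitters' processing notes also name CASAVA 1.8, TopHat and Bowtie2 and the builds GRCm38 and mm10. Poly(A) RNA was selected and a strand-marking kit used, per the labels' protocols. The annotation, filters and other versions are not stated there. As FPKM depend on the total of a library, abundant rows shift the rest.

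Each table held 24487 rows. The 9 rows flagged for too much data and 27 rows with symbols turned into dates were left out, and rows sharing a symbol were summed. Groups came from the genotype label. No test was run, since there is 1 library per genotype. Differences used a pseudocount of 1 FPKM, and genes reaching 1 FPKM in either library counted as measured. Genes of like level had a mean FPKM within 2-fold. The labels give no replicate numbers.

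The members and the 14 lists (175 entries, 171 in the tables) were chosen with earlier results of these data known. Text names all members, all measured neighbours, the partner genes except 1 that is not reported here, and from each main list up to 4 genes, the most abundant pair and the pair with the widest differences; neutrophil, monocyte, erythroid, megakaryocyte and housekeeping lists are summarised. Other genes named, such as Kit, Cd3e and Cdh5 as defining markers and Irgm1, Tgtp1 and Tgtp2, were added after their values were seen. The motifs were chosen after the FPKM values were seen. Protein features were not analysed here.

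Alternatives were 3 other scalings, pseudocounts of 0.1 and 0.5 FPKM, no filter, a minimum of 5 FPKM in either library, taking only the top row of a symbol, the mean, and counts without small or predicted RNAs. Those added after seeing the data were the list and neighbour medians under these settings, other filters for genes of like level, and members and list genes at 1 FPKM or more in both libraries. The procedure was tested on simulated data. The changes put in were larger than 2-fold and only in genes with a mean of 5 FPKM or more. That test therefore does not cover small differences or low genes such as Gimap3 and Gimap4. Python 3.11.15, pandas 2.3.3, NumPy 2.4.6 and matplotlib 3.10.9 were used.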

Additional observations from a re-analysis of the deposited data

How the results depend on the processing

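Each of the 8 GIMAP genes kept its direction under the 6 alternatives that apply to a single gene (3 scalings, 2 pseudocounts and the highest row per symbol). Most of these could not have turned it. A pseudocount cannot change a direction, and each member has only 1 row per library. Only the scalings could, and the largest moved the libraries by a factor of 1.04, less than the Gimap1 ratio of 1.06. The Gimap4 difference reached 1.09 with a pseudocount of 0.1 FPKM, where low values weigh more by construction, and 0.78 with 0.5 FPKM. The summed GIMAP difference of 0.04 turned to −0.0158 under the median of ratios and −0.0182 under the upper quartile, which lowered the median of all measured genes by less than 0.05. With a floor of 5 FPKM only Gimap1, Gimap6 and Gimap9 remained, 1 of them higher, and the GIMAP median turned to −0.0687, the lowest of all alternatives, against 0.22 for the highest. The count of genes past 2-fold was 250, 354 with a pseudocount of 0.1 FPKM and 42 without small or predicted RNAs. The neighbour median of 0.01 turned to −0.0330 under the median of ratios, −0.0347 under the upper quartile and −0.0133 with the floor of 5 FPKM. The partner median of 0.01 turned to −0.0442, −0.0467 and −0.0259 under the same settings in that order, and the lymphoid factor median of 0.04 to −0.00575, −0.00807 and −0.0443. The stem cell median of −0.01 turned to 0.0193 with no filter. The T cell median of 0.38 moved to 0.159 with no filter and 0.226 with the floor of 5 FPKM. The natural killer and innate lymphoid median of 0.70 moved to 0.0981 and 0.248 under the same settings, and to 0.979 with a pseudocount of 0.1 FPKM. No paired analysis was possible because there is 1 library per genotype. Values near 1 FPKM, those of Gimap3 and Gimap4, rest on the fewest fragments, and absolute depth is an estimate.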
